A study of Rattus norvegicus with 97 samples.

Results

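The Rab genes encode small GTPases that mark the membranes of the cell. They were studied here in the nucleus accumbens shell, the ventral striatal region most tied to reward, of rats bred for high or low alcohol drinking. A gene was a member when a probe set of the array carried its symbol alone and that symbol was Rab followed by a number and, at most, a letter and a further digit. This gave 56 genes of the 14217 genes on the array that carry 1 symbol, with 97 probe sets between them. For each gene the probe set with the highest mean over all arrays stands for the gene unless another is named, and 29 genes had 1 probe set, 18 had 2 and 9 had 3 or more. Another 3 probe sets are annotated to both Rab1a and Rab1b and were left out.

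There were 97 arrays, 1 per rat, from 10 lines in 5 pairs. The high-drinking lines were P, HAD1, HAD2, AA and sP, and their low-drinking counterparts were NP, LAD1, LAD2, ANA and sNP, in the same order. LAD1, sP and sNP had 9 animals each and the other lines had 10. No drug, transgene or treatment is named for any group, and age, sex and any exposure to alcohol are not stated in the labels used here, so a difference below is one between bred lines. Each line is 1 bred population, so within a pair the selected trait and other differences that breeding fixed cannot be told apart. All values are log2 RMA signals, so that a difference of 1 is a doubling, and differences are given as the high-drinking line minus the low-drinking line.

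A Rab protein is active when it holds GTP and inactive when it holds GDP. Exchange factors load GTP and place the Rab on its membrane, GTPase-activating proteins end the signal, and effectors, which bind the GTP form, tether, move or fuse the vesicle. Members differ by the membrane they mark: Rab3 and Rab27 proteins sit on secretory and synaptic vesicles, Rab5 and its relatives on early endosomes, Rab4 and Rab11 on recycling endosomes, Rab7 on late endosomes, and Rab1, Rab2 and Rab6 along the path through the endoplasmic reticulum and the Golgi. In neurons these steps set how transmitter and peptide vesicles are released and how receptors are taken in and returned to the surface.

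The array medians lay between 7.82 and 8.02. All 13 measured markers of medium spiny neurons, which make up most neurons of the striatum, lay above the median probe set. A label score was computed for each array from the 50 probe sets that best part the lines of its pair, with 0 for the low-drinking median and 1 for the high-drinking median. On this score 8 arrays were over 0.3 away from the value of their labelled line: P 9, NP 9, HAD1 28, LAD1 37, AA 19, ANA 20, sP 4 and sNP 4. They are called departing arrays, and results that rest on them are also given without them. Whether the labels of any of them were exchanged cannot be told from these files. The score is built from the line labels, so leaving departing arrays out can by itself widen a line difference. Whether a member was among the probe sets of the score was examined only for a Rab22a probe set. In sP/sNP the spiny neuron markers differed as well: 12 of 13 were called lower in sP, with a median difference of -0.94. Their mean level ran from 10.26 to 12.39 in sP and from 11.74 to 12.63 in sNP. The lowest signal of any probe set on any array was 3.56. In the same pair 4 of 9 markers of pallidum, septum and basal forebrain were called higher in sP and 0 lower. The differences of the 9 ran from -0.85 to 1.3, so they did not all go the same way. In bulk tissue, fewer cells of a type and less RNA per cell cannot be told apart. In no other pair was any marker of these lists called. The Gapdh 3'-5' difference, a measure of RNA integrity and labelling, ran from 4.19 to 5.38 in HAD1 and LAD1, from 2.3 to 3.6 in HAD2 and LAD2, and from -0.06 to 0.8 in the other lines, so levels are compared within a pair and not between pairs.

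Most Rab genes were called in no pair, and most of those differed by less than 0.2 on the log2 scale everywhere. With limma and an adjusted p under 0.05, P/NP had 1 Rab gene called of 56, a lower one (1.79%, where 0.935% of all genes were called and 0.443% were lower), HAD1/LAD1 had 0 (all genes 0.95%), HAD2/LAD2 had 0 (all genes 4.47%), AA/ANA had 1, again lower (1.79%, all genes 1.84%, of them lower 0.978%) and sP/sNP had 10 (17.9%, all genes 15.1%). In sP/sNP, 3 members were higher in sP (all genes 8.76%) and 7 were lower (all genes 6.39%). The shares called lay close to those of all genes, and with 56 members 1 gene changes a share by 1.79%. The count of 0 in HAD2/LAD2, against 4.47%, depends on the probe set chosen. There Rab1b, Rab2b, Rab14 and Rab22a were called on less bright probe sets, beside 4.6% of all probe sets. Without the departing arrays the members called were 1 in P/NP (all genes 1.96%), 1 in HAD1/LAD1 (3.5%), 0 in HAD2/LAD2 (4.47%), 2 in AA/ANA (3.85%) and 12 in sP/sNP (17.7%). At an unadjusted p under 0.05, 2 members passed in P/NP (all genes 7.43%), 3 in HAD1/LAD1 (9.19%), 11 in HAD2/LAD2 (14.6%), 6 in AA/ANA (9.28%) and 23 in sP/sNP (35.3%). The median difference of the members was 0.007 in P/NP, -0.023 in HAD1/LAD1, -0.029 in HAD2/LAD2, 0 in AA/ANA and 0.04 in sP/sNP, beside 0.001, -0.006, -0.009, -0.003 and 0.008 over all genes. With the Gapdh 3'-5' difference as a covariate 2 members were called in sP/sNP, Rab36 and Rab27b, beside 2.82% of all genes, and the other 8 had adjusted p from 0.057 to 0.114. The sP/sNP count leaned on single arrays: it was 2 without sP 2, sP 5, sP 8, sP 9 or sNP 1, 3 without sNP 3, sNP 5 or sNP 9, and 6 without sNP 6. Rab36 and Rab27b kept their sP/sNP call whichever array was left out, and the other 8 lost it without some, from 5 of the 18 arrays for Rab3d to 12 for Rab40b.

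**Figure D1:**
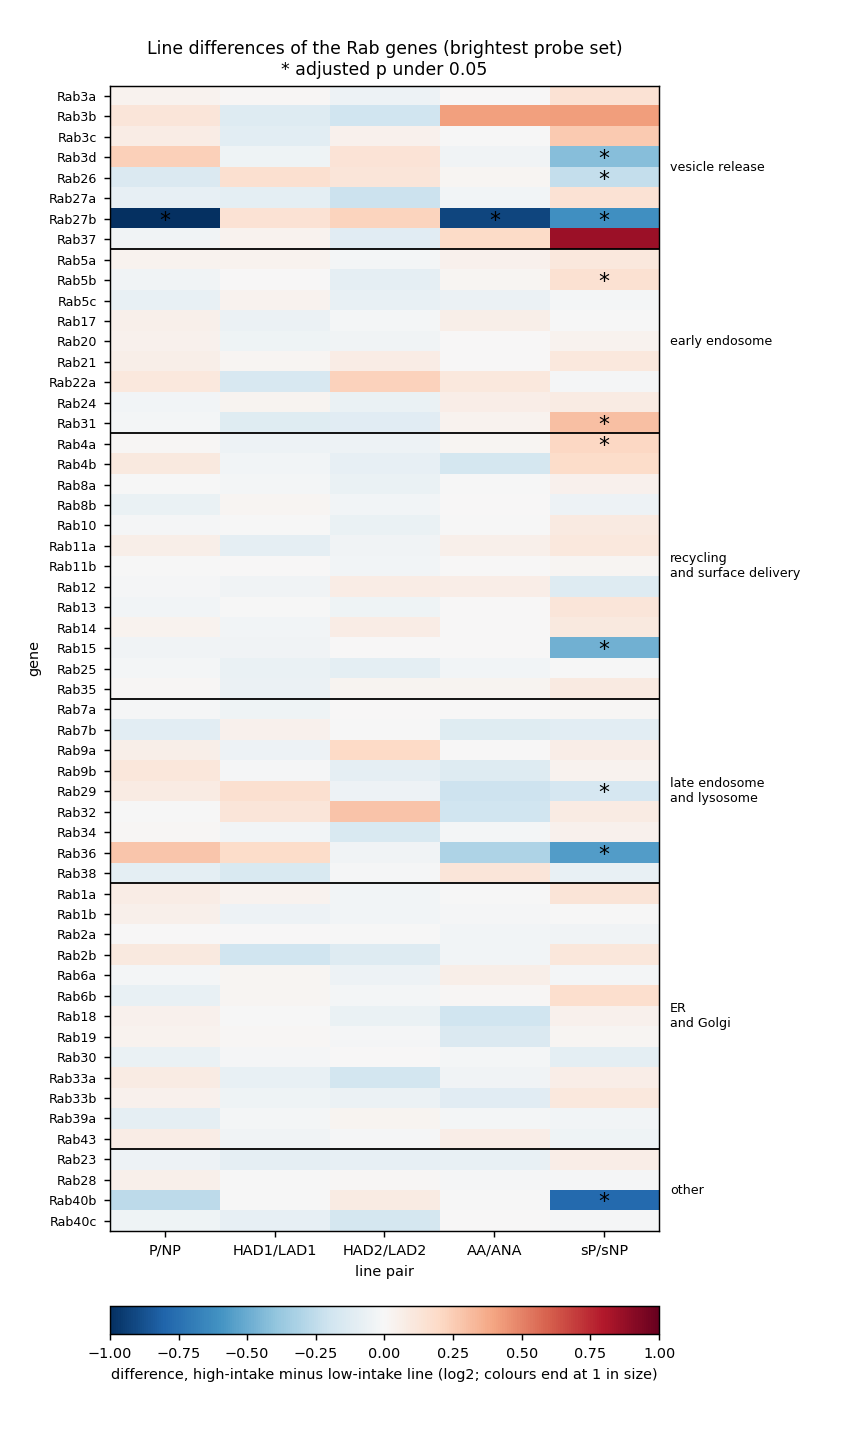
Difference between the high-drinking and the low-drinking line (log2, colour) of each of the 56 Rab genes (rows, grouped by the membrane step they are known for) in the 5 line pairs (columns); a star marks an adjusted p under 0.05. Stars stand for Rab27b in P/NP, AA/ANA and sP/sNP and for 9 further genes in sP/sNP, and the HAD1/LAD1 and HAD2/LAD2 columns hold none.

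Of the 56 genes, 46 were called in no pair. Among them 20 stayed within 0.1 on the log2 scale in all 5 pairs, including Rab7a of the late endosome, Rab8a and Rab8b of surface delivery, Rab11b of the recycling endosome and Rab2a and Rab6a of the Golgi path, and 37 stayed within 0.2. On a less bright probe set 7 of the 46 were called in some pair: Rab1b, Rab2b, Rab3a, Rab6b, Rab10, Rab14 and Rab22a. The same counts were not made over all genes, so they show nothing particular to Rabs. The median size of the members' differences was 0.0492 in P/NP, 0.0369 in HAD1/LAD1, 0.0604 in HAD2/LAD2, 0.025 in AA/ANA and 0.0948 in sP/sNP. Over all genes it was 0.0452, 0.0488, 0.057, 0.0487 and 0.0897 in the same order.

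Among the 8 Rabs of vesicle release, Rab27b was called lower in the high-drinking line in 3 pairs. Rab27b anchors secretory granules and other vesicles at the plasma membrane before they fuse. In P/NP its signal ran from 8.49 through a median of 9.04 to 9.99 in P, and from 8.9 through 10.41 to 10.84 in NP. All 10 P animals lay below the NP median and 4 lay below every NP animal, and the lowest NP value belonged to a departing array. The difference was -1.12 (SE 0.233, adjusted p = 0.0172), and without P 9 and NP 9 it was -1.36 (adjusted p = 0.000264). With the Gapdh 3'-5' difference as a covariate the adjusted p was 0.0566 at a difference of -1.08.

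In AA/ANA the Rab27b signal ran from 8.6 through 9.91 to 10.62 in AA and from 10.05 through 10.61 to 11.23 in ANA. Of the 10 AA animals 8 lay below every ANA animal, so the lines overlapped only through the highest AA arrays, of which the departing AA 19 was the highest. The difference was -0.92 (SE 0.211, 1.89-fold lower in AA, adjusted p = 0.0177), and -0.95 without the departing arrays (adjusted p = 0.00531). With the mean of both Rab27b probe sets it was -0.52 and not called (adjusted p = 0.0682). In sP/sNP the signal ran from 9.85 through 10.44 to 10.66 in sP and from 10.61 through 10.97 to 11.41 in sNP. All 9 sP animals lay below the sNP median and 7 lay below every sNP animal. The difference was -0.61 (SE 0.113, 1.53-fold lower in sP, adjusted p = 0.00298), and without sP 4 and sNP 4 the lines no longer overlapped (-0.69, adjusted p = 0.000893).

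In the replicate HAD and LAD selections Rab27b was not called, at 0.14 (SE 0.183, adjusted p = 0.919) in HAD1/LAD1 and 0.22 (SE 0.142, adjusted p = 0.562) in HAD2/LAD2. An F test in limma of whether the 5 differences were equal gave an adjusted p of 3.6e-05. The second probe set, 1370122_at, was called in no pair: its differences were -0.26 in P/NP (SE 0.121), 0.03 in HAD1/LAD1 (SE 0.11), 0.26 in HAD2/LAD2 (SE 0.115), -0.13 in AA/ANA (SE 0.111) and -0.04 in sP/sNP (SE 0.106, and 0.08 with the marker index). The 3 calls of Rab27b thus rest on the brighter probe set, 1378107_at. Its calls in AA/ANA and P/NP also held with the spiny neuron marker index as a covariate (-0.90, adjusted p = 0.011 and -1.14, adjusted p = 0.00664), whereas in sP/sNP the difference was then -0.44 (adjusted p = 0.202).

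**Figure D2:**
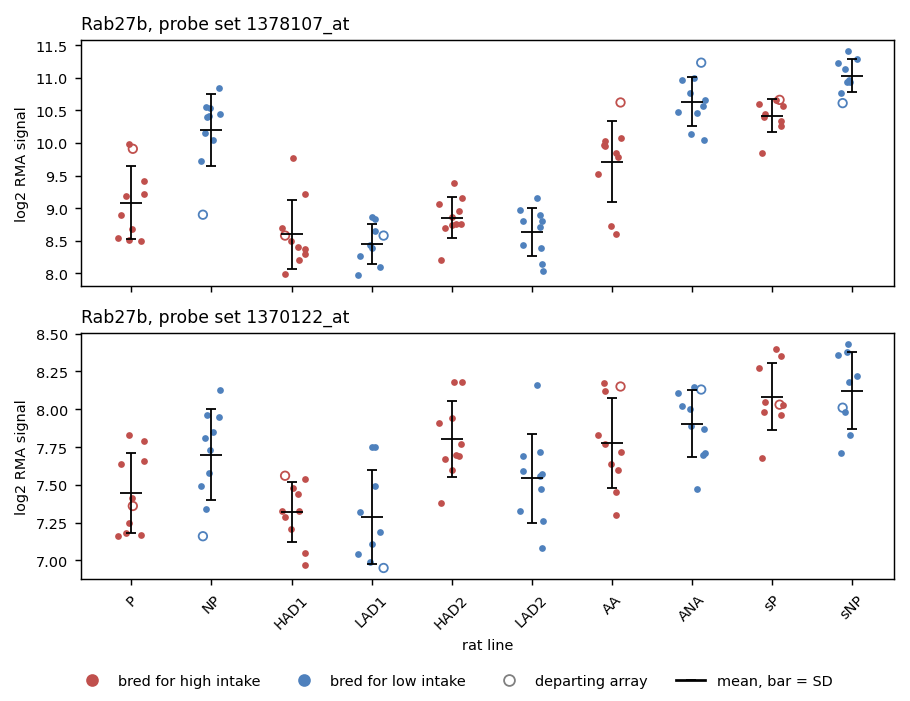
Log2 RMA signal of the 2 Rab27b probe sets (panels) in each rat (points) of the 10 lines, with line mean and SD; open points are departing arrays and red and blue mark high- and low-drinking lines. In the upper panel the means of P, AA and sP lie below those of NP, ANA and sNP, with some overlap of animals in each of these pairs. The HAD and LAD lines overlap throughout, and the lower panel shows overlap in every pair.

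With all arrays and no covariate, the other calls among vesicle release genes were in sP/sNP. Rab3d, which acts on secretory granules, ran from 7.86 through 8.28 to 8.59 in sP and from 8.24 through 8.69 to 8.92 in sNP, a difference of -0.42 (SE 0.108, adjusted p = 0.0244). In P/NP Rab3d differed by 0.24 (SE 0.211) without a call, and with the marker index as a covariate it was called higher in P, at 0.33 (SE 0.0753, adjusted p = 0.0193). Rab26, linked to the turnover of synaptic vesicles, ran from 10.92 through 11.24 to 11.4 in sP and from 11.23 through 11.46 to 11.67 in sNP, a difference of -0.24 (SE 0.0707, adjusted p = 0.0368). For both genes all 9 sP animals lay below the sNP median, with overlap of the lines. Rab26 also differed between pairs (adjusted p of the F test 0.00191), with 0.16 in HAD1/LAD1, 0.12 in HAD2/LAD2, 0.02 in AA/ANA and -0.15 in P/NP. Without HAD1 28 and LAD1 37 it was called higher in HAD1, at 0.23 (adjusted p = 0.0095), opposite to sP/sNP.

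Rab3a, the most studied Rab of synaptic vesicles, differed by 0.04 in P/NP, 0.01 in HAD1/LAD1, -0.05 in HAD2/LAD2, 0.01 in AA/ANA and 0.15 in sP/sNP, and was called in none (adjusted p = 0.0886 in sP/sNP). Its less bright probe set, 1369816_at, was called higher in sP, at 0.21 (SE 0.0685, adjusted p = 0.0474), and without the departing arrays both were called (0.17 and 0.23, both with adjusted p = 0.0459). The widest difference of any member on its brightest probe set in sP/sNP was that of Rab37, linked to granule secretion, at 0.85 (SE 0.287, adjusted p = 0.0551), which was not called. Its signal ran from 5.35 to 7.41 in sP and from 5.04 to 6.43 in sNP, a wide spread in both, and with the marker index the difference was -0.09 (SE 0.158). Rab3b was not called either, at 0.41 (adjusted p = 0.472) in AA/ANA and 0.42 (adjusted p = 0.0867) in sP/sNP.

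Among the 9 early endosome genes, Rab22a showed the widest line differences of the family, but on 1 of its 3 probe sets. Rab22a acts on early endosomes and on the return of receptors that enter without clathrin. Its brightest probe set, 1389692_at, differed by 0.10 in P/NP, -0.16 in HAD1/LAD1, 0.23 in HAD2/LAD2, 0.10 in AA/ANA and -0.01 in sP/sNP, with no call (lowest adjusted p 0.102, in HAD2/LAD2). With the marker index as a covariate it was called higher in HAD2, at 0.26 (SE 0.0613, adjusted p = 0.0101). The probe set 1372862_at differed by -0.07, -0.09, -0.09, -0.03 and 0.03 in the same order, again with no call. On these probe sets the lines of every pair overlapped.

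The third Rab22a probe set, 1377896_at, gave a different picture. In HAD1/LAD1 it ran from 6.62 through 6.87 to 8.84 in HAD1 and from 6.47 through 8.76 to 9.16 in LAD1. In HAD2/LAD2 it ran from 7.22 through 7.54 to 8.72 in HAD2 and from 8.88 through 9.23 to 9.47 in LAD2. In AA/ANA it ran from 8.47 through 8.83 to 8.99 in AA and from 6.86 through 7.41 to 8.75 in ANA. The low line was thus the high-drinking line in both HAD pairs and the low-drinking line in AA/ANA. All 10 HAD2 animals lay below every LAD2 animal, while HAD1 and LAD1, and AA and ANA, overlapped through 3 arrays that are all departing arrays: HAD1 28 at 8.84, LAD1 37 at 6.47 and ANA 20 at 8.75.

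The 1377896_at difference was -1.52 in HAD1/LAD1 (SE 0.304, 2.87-fold, adjusted p = 0.016), -1.56 in HAD2/LAD2 (SE 0.138, 2.96-fold, adjusted p = 6.5e-08) and in AA/ANA the mean was 8.8 in AA and 7.49 in ANA (SE of the difference 0.155, 2.48-fold, adjusted p = 2.33e-05). Over all probe sets 1.2%, 4.6% and 2.35% were called in these pairs, 1.05% in P/NP and 12.9% in sP/sNP. Without the departing arrays HAD1 and LAD1, and AA and ANA, no longer overlapped either, with -1.98 in HAD1/LAD1 (adjusted p = 4.03e-12) and 1.45 in AA/ANA (adjusted p = 2.29e-09). In P/NP it differed by -0.07 (SE 0.0523, adjusted p = 0.978) and in sP/sNP by -0.09 (SE 0.0692, adjusted p = 0.428). The F test of equal differences gave an adjusted p of 9.74e-18.

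The values of 1377896_at fell into a lower and an upper set. No array lay between 7.86 and 8.47, a gap of 0.62 in a range from 6.47 to 9.47, and 28 arrays were below it and 69 above. The lower set held 9 of 10 HAD1, 9 of 10 HAD2, 9 of 10 ANA and 1 of 9 LAD1 animals and none of the animals of P, NP, LAD2, AA, sP and sNP. The label scores of the arrays on the other side from their line were 0.0188 for HAD1 28, 0.982 for LAD1 37 and 0.907 for ANA 20, each near the opposite line of the pair. The fourth, HAD2 4 at 8.72, had a label score of 1, at the HAD2 end. The 50 probe sets behind the score held 1377896_at for 1 of 19 arrays of HAD1/LAD1, 1 of 20 of HAD2/LAD2 and 16 of 20 of AA/ANA, so in AA/ANA the score and this signal are not independent.

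**Figure D3:**
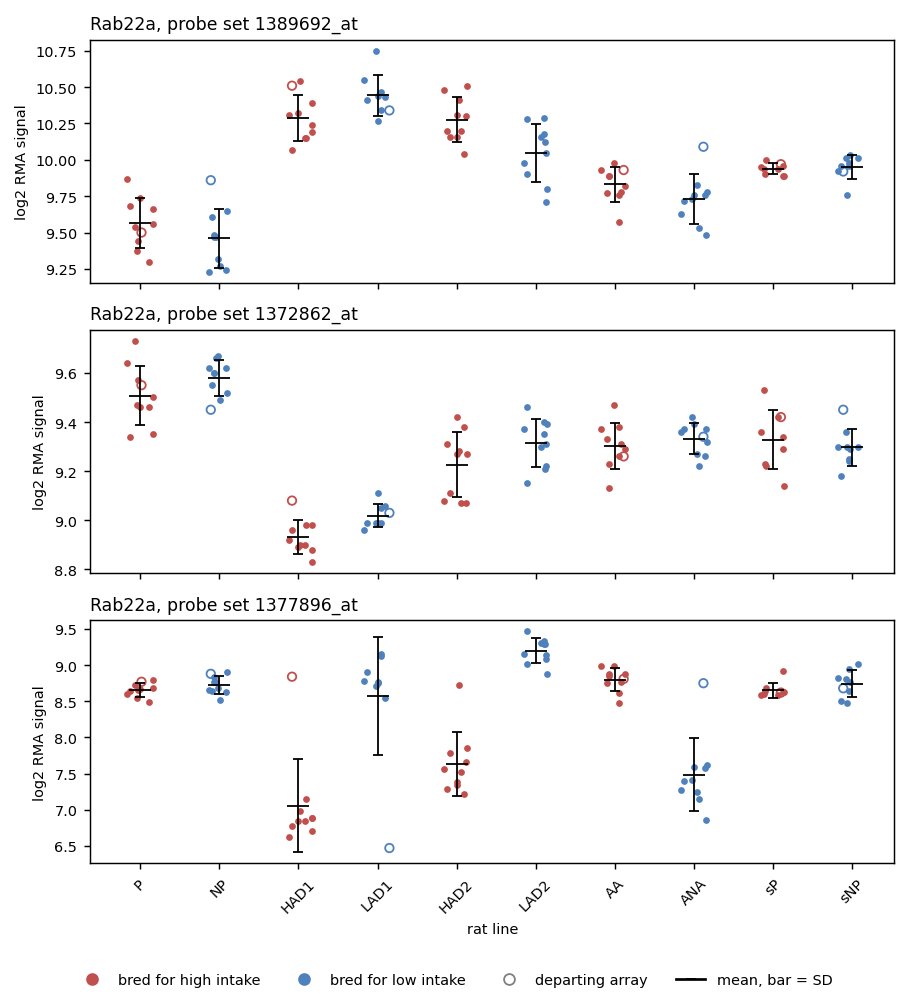
Log2 RMA signal of the 3 Rab22a probe sets (panels, each with its own scale) in each rat of the 10 lines, with line mean and SD; open points are departing arrays. In the lowest panel HAD1, HAD2 and ANA lie mostly below 7.86 and all other lines mostly above 8.47, whereas the upper panels show no such split.

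The genes beside Rab22a in the RefSeq order were examined in the same fits. Of the 5 named genes on each side (Rbm38, Pck1, Zbp1, Pmepa1 and Cimip1, and Vapb, Stx16, Npepl1, Gnas and Nelfcd), none was called in HAD1/LAD1, HAD2/LAD2 or AA/ANA. Their brightest probe sets differed by at most 0.24 in those pairs apart from Pck1, at -0.50 in HAD2/LAD2 (SE 0.594). In sP/sNP, where 1377896_at was not called, Vapb (0.24), Npepl1 (0.24) and Gnas (0.46) were called higher in sP.

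Of the remaining early endosome genes, 2 were called, both higher in sP. Rab5b, one of the Rab5 proteins that drive early endosome fusion, ran from 11.2 through 11.35 to 11.42 in sP and from 11.06 through 11.22 to 11.25 in sNP. The difference was 0.15 (SE 0.0424, adjusted p = 0.0329), with 7 of 9 sP animals above every sNP animal. Its 4 less bright probe sets ranged from -0.09 to 0.04 in this pair and were not called. Rab31, which carries cargo between the Golgi and endosomes, ran from 10.58 through 10.77 to 11.03 in sP and from 10.21 through 10.54 to 10.7 in sNP. The difference was 0.30 (SE 0.0854, adjusted p = 0.0333), with 6 of 9 sP animals above every sNP animal, and the second probe set gave 0.26 (adjusted p = 0.057). Rab5a, the form of Rab5 most used as a marker of early endosomes, differed by 0.03, 0.04, -0.02, 0.04 and 0.10 over P/NP, HAD1/LAD1, HAD2/LAD2, AA/ANA and sP/sNP and was called in none.

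In the recycling and surface delivery group of 13, Rab4a was called higher and Rab15 lower in sP. Rab4a, which returns receptors rapidly to the surface, ran from 10.17 through 10.29 to 10.6 in sP and from 10.02 through 10.17 to 10.32 in sNP, a difference of 0.21 (SE 0.0666, adjusted p = 0.0445). Rab15, a Rab of neurons that acts in endocytosis, ran from 10.5 through 11.2 to 11.63 in sP and from 11.19 through 11.64 to 11.77 in sNP, a difference of -0.48 (SE 0.144, adjusted p = 0.0383). The other probe sets of Rab15 gave -0.17 (adjusted p = 0.216) and -0.24 (adjusted p = 0.199), and the mean of all of them -0.30 (adjusted p = 0.0675). All 9 sP animals lay below the sNP median for Rab15, and the lines overlapped for both genes. In the other 4 pairs these genes stayed between -0.05 and 0.02. Rab11a, the standard marker of recycling endosomes, differed by 0.06 in P/NP, -0.09 in HAD1/LAD1, -0.03 in HAD2/LAD2, 0.05 in AA/ANA and 0.10 in sP/sNP and was not called.

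Further probe sets of this group moved away from the brightest one of their gene. Rab10 1368847_at was called higher in sP at 0.20 (SE 0.0547, adjusted p = 0.0314), while its brightest probe set gave 0.09 (adjusted p = 0.132). The dimmest of the 5 probe sets of Rab14, 1397463_at, had opposite directions in the replicate selections. It ran from 5.17 to 6.44 in HAD1 and from 6.02 to 6.9 in LAD1, and from 5.55 to 6.99 in HAD2 and from 4.65 to 5.67 in LAD2. The differences were -0.55 in HAD1/LAD1 (SE 0.149, adjusted p = 0.0756, and -0.64 with adjusted p = 0.0196 without the departing arrays) and 0.72 in HAD2/LAD2 (SE 0.181, adjusted p = 0.0206), with an adjusted p of 0.000102 for unequal differences. The brightest Rab14 probe set gave -0.02 and 0.07 in these pairs. The mean of all Rab14 probe sets gave 0.18 in HAD2/LAD2 and was not called (adjusted p = 0.243). The probe set 1397463_at is among the dimmest 25% on the array, which the alternative without dim probe sets leaves out.

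In the late endosome and lysosome group of 9, Rab36 and Rab29 were called lower in sP. Rab36, which binds effectors that place late endosomes and lysosomes, ran from 8.81 through 9.08 to 9.31 in sP and from 9.32 through 9.7 to 9.8 in sNP, so all 9 sP animals lay below every sNP animal. The difference was -0.56 (SE 0.0759, 1.48-fold lower, adjusted p = 0.000134), the smallest adjusted p of any member on its brightest probe set in this pair. Rab36 differed by 0.27 in P/NP, 0.18 in HAD1/LAD1, -0.04 in HAD2/LAD2 and -0.31 in AA/ANA, none of them called, and the F test of equal differences gave an adjusted p of 0.000551. Rab29, a partner of the kinase Lrrk2 at the trans-Golgi and lysosomes, ran from 9.86 through 9.94 to 10.08 in sP and from 10.02 through 10.1 to 10.42 in sNP, with 8 of 9 sP animals below every sNP animal. Its difference was -0.17 (SE 0.0499, adjusted p = 0.0364). In the other pairs it was 0.08, 0.16, -0.05 and -0.21 (P/NP, HAD1/LAD1, HAD2/LAD2 and AA/ANA), and the F test gave an adjusted p of 0.00021. Rab7a, the central Rab of late endosomes, stayed between -0.04 and 0.01 in all 5 pairs.

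No brightest probe set of the 13 measured endoplasmic reticulum and Golgi genes was called in any pair. Rab6b, a Golgi Rab of neurons, gave 0.17 in sP/sNP (adjusted p = 0.07), while its second probe set, 1392478_at, ran from 10.05 through 10.38 to 10.79 in sP and from 9.62 through 9.81 to 10.43 in sNP. That probe set differed by 0.49 (SE 0.12, adjusted p = 0.0211), by 0.25 in P/NP and 0.13 in AA/ANA without a call, and by -0.05 and -0.02 in the HAD pairs. Its average over the 5 pairs was 0.16 (adjusted p = 0.0297). With the marker index neither was called, at 0.10 in sP/sNP (adjusted p = 0.964) and 0.10 on average (adjusted p = 0.0764), and the mean of the Rab6b probe sets averaged 0.09 (adjusted p = 0.12). In HAD2/LAD2 a second probe set of Rab2b, 1375985_at, was called at -0.44 (SE 0.109, adjusted p = 0.0186), beside -0.13 on the brightest one, and Rab1b 1398982_at at -0.25 (SE 0.0709, adjusted p = 0.0491), beside -0.03. The lines overlapped in all of these. In this pair 5 of 9 oligodendrocyte markers were called lower in HAD2, their mean level running from 11.07 to 11.47 in HAD2 and from 11.3 to 12.06 in LAD2. Their part in the Rab differences was not tested. Rab18, linked to lipid droplets and the endoplasmic reticulum, was called lower in AA when the departing arrays were left out (-0.23, adjusted p = 0.0145, and -0.20 with all arrays).

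Of the 4 remaining genes Rab40b, which joins a ubiquitin ligase complex, had the largest lower value of sP/sNP. It ran from 10.44 through 12.01 to 12.51 in sP and from 11.99 through 12.5 to 12.86 in sNP, with 8 of 9 sP animals below the sNP median. The sP animals spread much more widely (SD 0.787) than the sNP animals (SD 0.281). The difference was -0.78 (SE 0.254, 1.71-fold lower, adjusted p = 0.0493), and the second probe set gave -0.86 (SE 0.278, adjusted p = 0.0473). The first call was lost under quantile normalization (adjusted p = 0.0516), and both under a trended, robust eBayes fit (adjusted p = 0.0535 and 0.0521).

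Upstream sequences were taken from RefSeq (GRCr8), where 45 members had an entry, and 250 bases before the annotated start were searched for 6 motifs on both strands. The GC box GGGCGG was in 35 of the 45 (77.8%), beside 40.3% of 19005 protein-coding genes, and the TATA box TATAAA in 0 of 45, beside 12.3%. The CCAAT box CCAAT was in 33.3% beside 35.5%, the E-box CACGTG in 6.67% beside 6.38%, the cAMP response element TGACGTCA in 2.22% beside 2.03% and the AP-1 site TGAGTCA in 8.89% beside 3.67%. Of the 10 genes called in sP/sNP, 8 had an entry, and all of these but Rab27b held a GC box, so the motif was found in genes of both directions. Rab27b held the AP-1 letters instead. Rab31, the largest called value higher in sP, and Rab40b, the largest lower one, are shown because they represent these directions, with the GC box letters of either strand in capitals (Rab31 at chr9:112828093-112828342 and Rab40b at chr10:107157376-107157625, both on the minus strand and printed 5′ to 3′).
Rab31: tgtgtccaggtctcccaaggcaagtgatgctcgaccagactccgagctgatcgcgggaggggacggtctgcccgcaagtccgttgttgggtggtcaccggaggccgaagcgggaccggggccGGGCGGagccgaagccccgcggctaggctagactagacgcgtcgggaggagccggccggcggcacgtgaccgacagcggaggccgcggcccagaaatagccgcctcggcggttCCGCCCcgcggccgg
Rab40b: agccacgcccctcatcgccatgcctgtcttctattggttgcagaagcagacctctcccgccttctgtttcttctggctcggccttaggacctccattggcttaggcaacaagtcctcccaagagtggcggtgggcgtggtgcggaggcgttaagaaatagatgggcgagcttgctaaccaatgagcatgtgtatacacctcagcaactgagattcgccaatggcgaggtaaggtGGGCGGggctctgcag
The windows have 72.4% and 56.8% G and C. The matches lie 128 and 15 bases before the start of Rab31 and 16 bases before that of Rab40b.

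The 10 calls of sP/sNP were set beside the spiny neuron difference of that pair. The marker index, which subtracts the mean pallidal, septal and basal forebrain marker from the mean spiny neuron marker, ran from 1.05 through 2.73 to 3.45 in sP and from 2.67 through 3.45 to 4.43 in sNP. With this index as a covariate 1 member was called, Rab36 at -0.37 (adjusted p = 0.00939), beside 0.816% of all genes. The same covariate left 2 members called in P/NP (all genes 2.75%), 0 in HAD1/LAD1 (0.598%), 2 in HAD2/LAD2 (5.95%) and 2 in AA/ANA (2.76%). The difference of Rab31 was then 0.03, that of Rab5b 0.06, that of Rab3d -0.07, that of Rab26 -0.09 and that of Rab29 -0.14. Those of Rab4a and Rab15 were 0.00, and that of Rab40b turned to 0.10 from -0.78. The values of most called members thus shrank when the index was held, while Rab36, Rab27b and Rab29 kept the larger share of theirs. Since the index itself differs between the lines, what part of a difference belongs to the tissue sampled and what part to the line cannot be told apart.

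**Figure D4:**
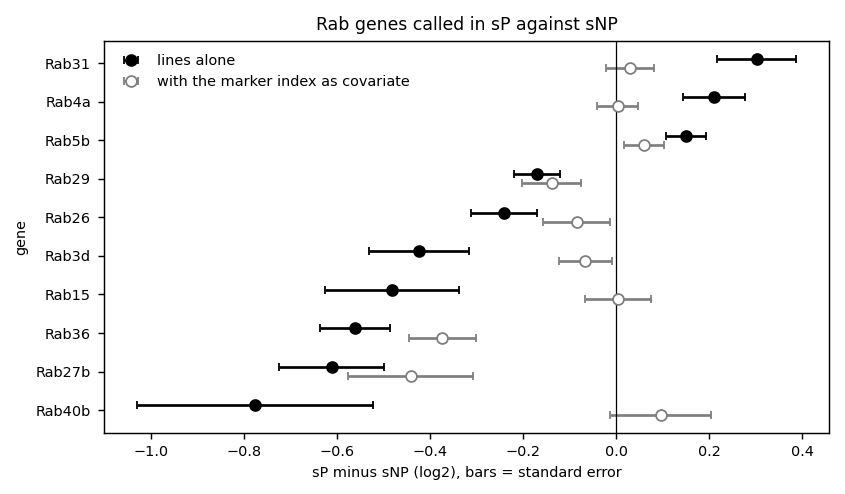
Difference between sP and sNP (log2, with standard error) of the 10 Rab genes called in that pair, from the lines alone (filled) and with the marker index as covariate (open). Rab36 and Rab27b stay apart from 0 by several standard errors at -0.37 and -0.44. With the covariate only Rab36 was called by limma (adjusted p = 0.00939), and Rab27b was not (adjusted p = 0.202). Rab40b, Rab15, Rab4a and Rab31 move to between 0.00 and 0.10.

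Proteins that act on Rabs were counted in the same fits, with 113 of 130 listed genes measured. None was called in P/NP, HAD1/LAD1 or AA/ANA. In HAD2/LAD2, 1 was higher and 4 lower (4.42%, all genes 4.47%), and in sP/sNP 10 were higher and 8 lower (15.9%, all genes 15.1%). The effector Appl2, which binds Rab5 on early endosomes, was called in both pairs with opposite signs, at -0.34 (adjusted p = 0.00537) in HAD2/LAD2 and 0.52 (adjusted p = 0.00323) in sP/sNP. Rufy1, an effector of Rab4 and Rab14, was higher in HAD2 at 0.29 (adjusted p = 0.0055), and Micall1, an effector of recycling Rabs, was lower at -0.35 (adjusted p = 0.0212). The exchange factor Dennd3 (-0.29) and the GTPase-activating protein Tbc1d2 (-0.26) were also lower in HAD2.

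In sP/sNP 6 of the 45 measured effectors were called higher and 3 lower. Sytl2, which binds Rab27 on secretory vesicles, was lower in sP at -0.27 (SE 0.0618, adjusted p = 0.0142), and Rufy3 was higher at 0.26 (adjusted p = 0.0107). No effector was called in P/NP or AA/ANA, where Rab27b was also lower, and a link between Sytl2 and Rab27b was not tested. Of the exchange factors Dennd2b was higher at 0.37 (adjusted p = 0.0102), and Dennd2c and Dennd6a were lower at -0.31 and -0.23. Of the GTPase-activating proteins 3 were called higher, Tbc1d1 (0.51) and Evi5 (0.25) among them, and 3 were called lower. The lower ones included Rabgap1l (-0.81) and Tbc1d10c, the widest of the group at -1.49 (SE 0.406, adjusted p = 0.0305). For Rufy3 and Tbc1d1 these values are those of the brighter of 2 probe sets, and the other went the opposite way. None of the 113 was called in this pair with the marker index as covariate. No gene of Rab prenylation and membrane recycling, such as the GDP dissociation inhibitors, was called in any pair (5 of 8 measured).

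Averaged over the 5 pairs, with the spread between animals as the error, Rab27b was the member called, at -0.46 (SE 0.0873, adjusted p = 0.000175), beside 3.08% of all genes (1.52% lower). This average also joins opposite signs, with 0.14 in HAD1/LAD1 and 0.22 in HAD2/LAD2 beside lower values in the other pairs. It is that of the brighter probe set, and the mean of both Rab27b probe sets averaged -0.24 (adjusted p = 0.0147). The Rab22a probe set 1377896_at had an average of -0.39 (adjusted p = 0.000651) made of pairs with opposite signs, beside 3.37% of all probe sets called. Without the departing arrays 2 members were called on average (all genes 4.59%). With the line pairs taken as the 5 replicates, limma called 0 members (all genes 0%) and 0 had an unadjusted p under 0.05 (all genes 3.69%). The Rab27b value in that fit was -0.46 (SE 0.222, unadjusted p = 0.0848). The 5 differences were unequal for 6 members (Rab12, Rab22a, Rab26, Rab27b, Rab29 and Rab36), beside 11.8% of all genes.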

How the data were processed

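RNA of the nucleus accumbens shell was measured on 97 Affymetrix arrays, 1 per rat. Per the labels' protocols, Trizol and RNeasy extracts of 25 ng total RNA went through 2-cycle amplification. The deposited values are log2 signals that the authors summarised with RMA, per the submitters' processing notes; the sources used here name no version of it. They were used as deposited, so summarised values rather than probes were compared, and the number of arrays per line limits precision. Of 31099 probe sets 57 controls were left out, which leaves 31042. Names came from the platform annotation (20826 probe sets with 1 symbol, 436 with several, 9780 with none), and all 56 members were found in the RefSeq table under the same symbol.

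Each pair was fitted alone with limma 3.58.1 in R 4.3.3 (lmFit, eBayes, two-sided), with Benjamini-Hochberg adjustment over the 31042 probe sets and a call at an adjusted p under 0.05. A fit over all arrays gave the average and the F test of equal differences, and another took the 5 pairs as replicates. The script was tested on simulated data.

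Genes named were every member called in a pair or the average, all Rab22a probe sets, Rab3a, Rab5a, Rab7a, Rab11a and Rab27b, and up to 3 called genes per pathway list and pair. Rab2a, Rab3b, Rab6a, Rab8a, Rab8b, Rab11b, Rab12, Rab18, Rab37 and Tbc1d10c were named after their values were seen. Members and lists were chosen with earlier results of these data known. Alternatives left out the departing arrays, each array or dim probe sets, or changed normalization, eBayes settings, covariates, the block, probe set choice or threshold. Animal numbers recur in P/NP and sP/sNP. Correlations of same-numbered animals ran from -0.591 to 0.774 (median 0.335) in P/NP and from -0.22 to 0.56 (median 0.108) in sP/sNP. Between animals of other numbers the medians were -0.0294 and 0.0498. Since same-numbered animals did not all deviate together, no pairing was used in the main fits, and the block is given as an alternative. The labels name 1 animal per array.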

Additional observations from a re-analysis of the deposited data

Results flagged for a closer look

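Within lines, 68 groups of values of called or Rab22a probe sets were examined for a value far from the others of its line, and chance flags about 1 in 20 such groups. On Rab22a 1377896_at these were HAD1 28 at 8.84, LAD1 37 at 6.47, HAD2 4 at 8.72, ANA 20 at 8.75 and sP 6 at 8.92, of which HAD1 28, LAD1 37 and ANA 20 are departing arrays. On Rab22a 1389692_at they were AA 17 at 9.57 and sNP 2 at 9.76. The array sNP 2 was also far from its line on Rab29, at 10.42, and sP 9 on Rab27b, at 9.85. 

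The differences of the 5 pairs were unequal by limma's F test for Rab27b (adjusted p = 3.6e-05), Rab29 (0.00021), Rab36 (0.000551), Rab26 (0.00191), Rab22a 1389692_at (0.027), Rab12 (0.0334) and Rab22a 1377896_at (9.74e-18).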

How the results depend on the processing

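The count of Rab genes called kept within 1.5 times of its value, in every pair, the average and the F test, under quantile normalization, without dim probe sets and with a trended, robust eBayes fit. Without the departing arrays it was 1 in HAD1/LAD1 (from 0), 2 in AA/ANA (from 1), 2 for the average (from 1) and 11 for the F test (from 6). With the Gapdh covariate it was 0 in P/NP (from 1), 1 in HAD2/LAD2 (from 0) and 2 in sP/sNP (from 10). With the marker index it was 2 in P/NP, 2 in HAD2/LAD2, 2 in AA/ANA and 1 in sP/sNP. With the mean of all probe sets of a gene it was 1 in HAD1/LAD1, 1 in HAD2/LAD2 and 2 for the average. At an adjusted p under 0.01 it was 0 in P/NP, 0 in AA/ANA and 2 in sP/sNP. With the animal number as a block it was 0 in P/NP, where Rab27b gave -1.12 (adjusted p = 0.0807), and 12 in sP/sNP. For each array the best correlated array of the other line was sought. It bore the same number for 8 of 20 arrays in P/NP and 3 of 18 in sP/sNP. The cause of these changes in the count was not tested.

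With each array left out in turn, an alternative chosen after seeing the data, the count ranged from 2 to 14 in sP/sNP, from 0 to 1 in HAD2/LAD2 and from 1 to 2 in AA/ANA, and stayed at 1 in P/NP and at 0 in HAD1/LAD1. It was 1 in HAD2/LAD2 without HAD2 8, LAD2 16, LAD2 19 or LAD2 20, and 2 in AA/ANA without AA 17 or AA 19. The calls of Rab27b in 3 pairs, Rab36, Rab22a 1377896_at, Rab6b 1392478_at, Rab2b 1375985_at and Rab14 1397463_at held throughout. Rab1b 1398982_at lost its call without any of 15 of 20 arrays, Rab10 1368847_at without any of 8 of 18 and Rab3a 1369816_at without any of 12 of 18.

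With the marker index the sP/sNP difference turned in sign for Rab15 (0.00) and Rab40b (0.10, and 0.11 on the second probe set). Over the alternatives other than single arrays, no other difference called with all arrays and no covariate changed direction. Counting uncalled members, 24 of the 56 Rab genes had the other sign in sP/sNP with the marker index, Rab37 (-0.09), Rab5a (-0.05) and Rab11a (-0.03) among them.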

Other observations

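Several calls rested on a probe set that is not the brightest of its gene. In HAD1/LAD1 without the departing arrays, Rab6a 1371103_at was called higher in HAD1 at 0.25 (adjusted p = 0.00985) and Rab2b 1375985_at lower at -0.28 (adjusted p = 0.0439), the latter in the direction it had in HAD2/LAD2.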
